A study of Rattus norvegicus with 102 samples.

Results

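Neurons keep a store of calcium inside the endoplasmic reticulum, and the proteins described here release it, refill it or remove calcium from the cell. Ryanodine receptors (Ryr1, Ryr2, Ryr3) are release channels that open when cytosolic calcium rises. Inositol trisphosphate receptors (Itpr1, Itpr2, Itpr3) are release channels that open when surface receptors activate phospholipase C. Atp2a2 encodes the SERCA2 pump that refills the store, Atp2b1 and Atp2b2 encode plasma membrane pumps that export calcium, and Stim2 encodes a sensor of store calcium that opens Orai channels. Altered calcium release from this store in CA1 pyramidal neurons is a long-studied feature of aging rat hippocampus.

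The 10 genes were taken by symbol from 3 tables of gene values, each symbol matched 1 row in every table, and they were 10 of the 26284 genes listed for the Illumina platform and of the 26341 listed for the Ion Proton. Rats were male Fisher 344 (label spelling) with no transgene or drug treatment named, and fell into young (title suffix Y, 5 to 6 months, n = 10), aged unimpaired (OG, n = 12) and aged impaired (OB, n = 12) groups, with both aged groups aged 17 to 22 months. A water maze had served to class the aged animals, CA1, CA3 and dentate gyrus (DG) had been dissected from a single hippocampus per rat after the subiculum was cut away, with no separate CA2 sample, and each of the 34 rats gave 1 library per subfield in each table. The same RNA was measured as poly-A mRNA on both platforms, and a further table named WT by the submitters, whose library type is not given in the sources used here, served as an alternative.

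Libraries held 3246922 to 42750899 gene-assigned reads on the Illumina platform and 4470473 to 21434160 on the Ion Proton. By marker genes of CA1, CA3 and DG, 14 libraries lay nearer to another subfield than to their label in both poly-A tables, namely 7 CA3, 5 DG and 2 CA1 libraries of 10 rats. Of these rats 9 had numbers from 9000 up. In rat R9781 the CA3 library lay nearest to DG and the DG library nearest to CA3, in all 3 tables. In rat R9869 the CA1 library lay nearest to DG and the DG library nearest to CA1, again in all 3. Whether labels were exchanged was not tested. Some of these libraries hold extreme Illumina values given below, such as the highest Itpr1 of DG (R9869) and the lowest of CA3 (R9781). Subfield values below are for all libraries unless stated, and those without these 14 follow the gene-by-gene account. Rats were numbered either below 9000 (18 rats) or from 9000 up (16 rats), each series held all 3 groups, and the study had worked at 2 sites with different rat suppliers. The series hold the same numbers of young and aged rats as those sites, but no label ties a rat to a site, so number series and site cannot be told apart.

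All 10 genes were measured in every library group and passed the filter on low values (mean of at least 10) in every comparison. Values are normalised read counts, and they are compared for 1 gene between libraries only, since transcript lengths were not used here. Within a subfield the coefficient of variation over 34 rats was smallest for Atp2a2 (6.86% in CA1, 12.5% in CA3, 7.19% in DG) and largest for Itpr3 in CA3 (52.0%) and Ryr1 in DG (46.4%). Because the tissue was bulk, a smaller number of cells of 1 type and less RNA per cell cannot be told apart.

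The first question was whether the store genes differ between subfields. Of the 10 genes 3 were called between CA1 and CA3, where 14.1% of all tested genes were called, 5 between CA1 and DG, against 26.4%, and 6 between CA3 and DG, against 27.9%. A call required a Benjamini-Hochberg adjusted p under 0.05, over all genes, in the same direction on both platforms, by limma fitted to all libraries of a table. The median log2 difference of the 10 genes was 0.10, 0.01 and -0.13 in these contrasts, against 0.01, 0.00 and 0.01 over all tested genes. On the Illumina platform the ranges of the 34 libraries overlapped between subfields for all 10 genes. The share of all genes with overlapping ranges was not counted, so nothing is read from this about the 10 genes. Without the 14 libraries nearer to another subfield the counts were 3, 6 and 6, where 17.3%, 27.6% and 30.4% of all tested genes were called.

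**Figure D1:**
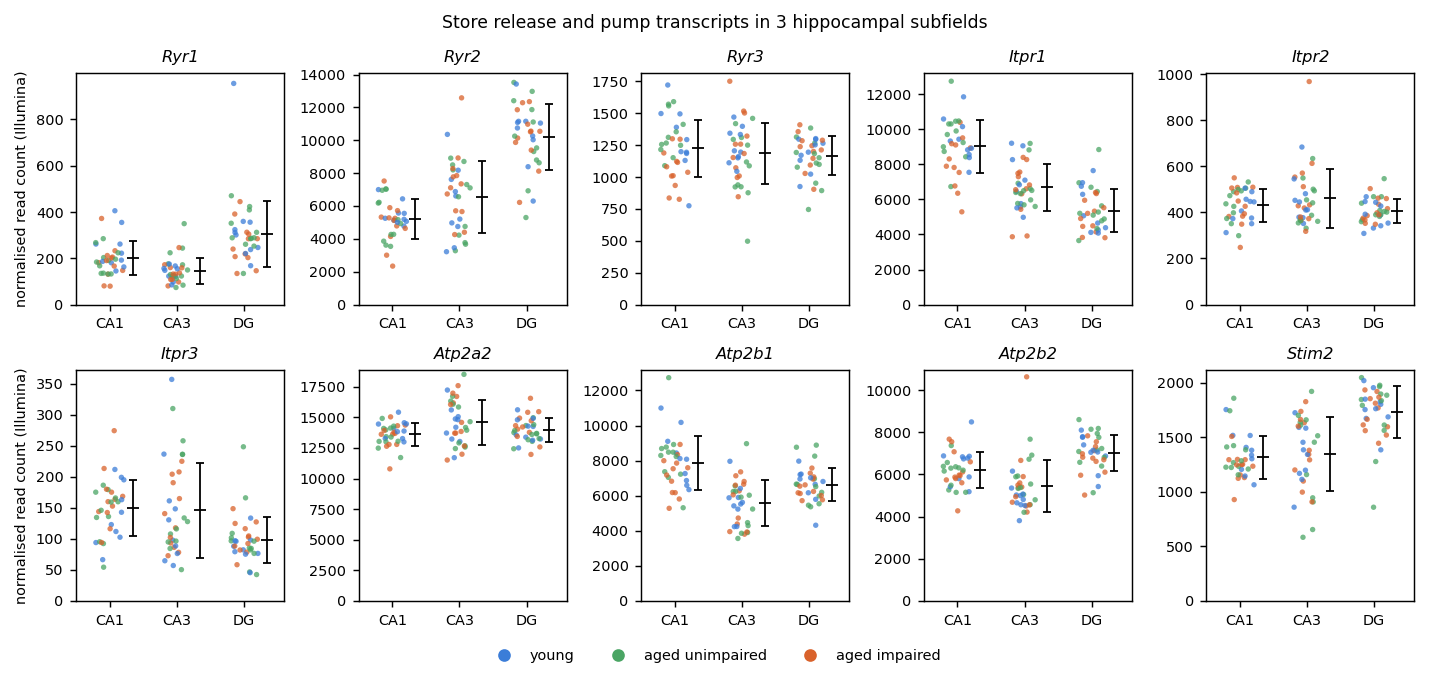
Normalised read count on the Illumina platform (linear axes from 0) of each of the 10 genes in CA1, CA3 and DG, 1 point per library (34 per subfield), colored by group, with the mean and SD beside each column. Itpr1 falls from CA1 (mean 9023) to DG (5365), Ryr2 rises from CA1 (5208) to DG (10207), and Atp2a2 has means of 13622, 14584 and 13982.

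Ryr2 and Ryr1 had their highest levels in DG, and Itpr1 had its highest level in CA1. Their promoters are shown because they belong to the genes with the largest differences in opposite directions. Each window runs from 250 bases before to 50 after the gene start, from RefSeq on build GRCr8 (the counts were made on rn5), with all 10 genes matched. Capitals mark GC boxes (GGGCGG) and CCAAT boxes on either strand, where neighbouring matches may overlap.
Ryr2, chr17:63081277-63081576, + strand: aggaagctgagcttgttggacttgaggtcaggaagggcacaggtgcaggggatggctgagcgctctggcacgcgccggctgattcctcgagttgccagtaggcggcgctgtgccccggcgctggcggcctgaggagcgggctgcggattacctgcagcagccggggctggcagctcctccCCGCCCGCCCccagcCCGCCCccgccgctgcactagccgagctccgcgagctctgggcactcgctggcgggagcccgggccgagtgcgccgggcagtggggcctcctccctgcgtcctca
Ryr1, chr1:93551256-93551555, - strand: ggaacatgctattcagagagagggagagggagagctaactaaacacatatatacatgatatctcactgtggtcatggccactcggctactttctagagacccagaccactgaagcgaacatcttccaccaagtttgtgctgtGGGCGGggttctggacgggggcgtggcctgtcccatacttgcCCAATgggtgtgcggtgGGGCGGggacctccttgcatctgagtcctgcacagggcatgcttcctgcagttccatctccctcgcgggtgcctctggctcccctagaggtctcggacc
Itpr1, chr4:142743190-142743489, + strand: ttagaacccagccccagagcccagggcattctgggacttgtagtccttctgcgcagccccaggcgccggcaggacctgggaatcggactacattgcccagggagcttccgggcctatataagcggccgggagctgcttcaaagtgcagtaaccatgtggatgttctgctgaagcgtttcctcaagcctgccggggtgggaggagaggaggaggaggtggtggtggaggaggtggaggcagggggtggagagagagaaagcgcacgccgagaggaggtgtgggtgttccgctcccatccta

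The Ryr2 window held 3 GC boxes and the Ryr1 window 2 with 1 CCAAT box, while the Itpr1 window held neither motif. Among the 10 genes 9 had a GC box and 5 a CCAAT box, against 33.1% and 37.5% of all 33469 promoter windows. The 10 were counted by gene (Ryr3 had 2 windows) and the shares by window over genes of every kind, so they are not strictly alike. No window of the 10 genes held the letters TATAAA, present in 14.2% of all windows, or TGACGTCA, the cyclic AMP response element, present in 1.83%. The GC content was 73.0% for Ryr2, 57.3% for Ryr1 and 62.0% for Itpr1, against a median of 51.7%. These matches describe the letters only.

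Among ryanodine receptors, Ryr2 (ENSRNOG00000017060, chromosome 17), the main form in heart and an abundant one in brain, was lowest in CA1. Its level ran from 2340 to 7520 in CA1 (median 5177), from 3217 to 12581 in CA3 (median 6804) and from 5297 to 13520 in DG (median 10529). All 34 DG libraries lay above the CA1 median and all 34 CA1 libraries below the DG median. The log2 difference of CA1 minus DG was -0.98 ± 0.10 (SE) on the Illumina platform (limma adjusted p = 3.42e-15) and -0.88 ± 0.10 on the Ion Proton. CA3 minus DG was -0.69 ± 0.10 and -0.67 ± 0.10 (adjusted p = 1.86e-09 and 2.07e-08 by limma). CA1 minus CA3 was -0.29 ± 0.10 and was not called, since the Ion Proton adjusted p was 0.143.

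Ryr1 (ENSRNOG00000020557, chromosome 1), named for its role in skeletal muscle, was highest in DG. Its level was 79.5 to 406 in CA1 (median 190), 73.8 to 350 in CA3 (median 132) and 134 to 956 in DG (median 288). All 34 DG libraries exceeded the CA3 median, and 33 of 34 CA3 libraries lay below the DG median. The log2 difference was 0.45 ± 0.12 for CA1 minus CA3 and -1.04 ± 0.12 for CA3 minus DG, with Ion Proton values of 0.47 ± 0.15 and -0.85 ± 0.15. For CA1 minus DG it was -0.59 ± 0.12 (limma adjusted p = 3.31e-05), and -0.38 ± 0.15 on the Ion Proton missed the threshold (adjusted p = 0.0523). With a block on the rat, which compares the subfields of the same animal, this difference was called (Ion Proton adjusted p = 0.0396 by limma), as it was without each of 10 single rats. The CA1 minus CA3 call was lost without the 7 rats that had at least 28017953 reads in each Illumina library (0.49, with an Ion Proton adjusted p of 0.0571 by limma), and in the WT values that difference was 0.29 ± 0.11. Ryr3 (ENSRNOG00000006645, chromosome 3), the third ryanodine receptor, had medians of 1208, 1190 and 1194 in CA1, CA3 and DG, and its largest log2 difference was 0.06 (95% interval -0.07 to 0.19, CA1 minus DG).

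Itpr1 (ENSRNOG00000007104, chromosome 4), the main inositol trisphosphate receptor of neurons, was ordered CA1, CA3, DG from high to low, and each step was called. Its level was 5292 to 12746 in CA1 (median 9057), 3870 to 9206 in CA3 (median 6534) and 3652 to 8846 in DG (median 5154). All 34 CA1 libraries lay above the DG median and all 34 DG libraries below the CA1 median. The log2 differences were 0.76 ± 0.07 for CA1 minus DG (limma adjusted p = 1.28e-16), 0.44 ± 0.07 for CA1 minus CA3 and 0.32 ± 0.07 for CA3 minus DG, and Ion Proton values were 0.71, 0.40 and 0.30. Itpr3 (ENSRNOG00000026651, chromosome 20), the third inositol trisphosphate receptor, ran from 54.4 to 275 in CA1 (median 156) and from 42.6 to 249 in DG (median 94.4), and CA1 minus DG was 0.62 ± 0.14 (0.84 ± 0.19 on the Ion Proton). In CA3 it ran from 50.5 to 357 (median 123), and CA3 minus DG was 0.48 ± 0.14 (limma adjusted p = 0.00197) and 0.42 ± 0.19 on the Ion Proton, which missed the threshold (adjusted p = 0.0923). That difference was called without rat R1930, R1931 or R9865, and without the libraries nearer to another subfield it was not (0.44, Ion Proton adjusted p = 0.163 by limma). Itpr2 (ENSRNOG00000001804, chromosome 4) was not called in any contrast, with medians of 441, 431 and 395.

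Markers of other cell types were counted beside the 26.4% of all tested genes called for CA1 minus DG. Of 9 tested endothelial and mural markers 6 were called higher in CA1 than in DG, and their summed level was 2651 to 8175 in CA1 and 1407 to 4729 in DG. Of 10 oligodendrocyte markers 10 were called higher in CA1 than in DG, with sums of 79748 to 308164 and 47898 to 232761, and 0 markers of either list were at 0 in these subfields. Of 8 tested interneuron markers 4 were called higher in CA1 than in DG, and of 10 microglial markers 3, which is near the share over all genes. Of 10 astrocyte markers 1 was called higher, with mean sums of 88155 in CA1 and 77276 in DG. In these 5 lists 0 markers were called lower in CA1. For CA3 minus DG, beside 27.9% of all genes, 10 of 10 oligodendrocyte, 6 of 10 microglial, 4 of 8 interneuron, 3 of 10 astrocyte and 1 of 9 endothelial and mural markers were called higher in CA3 and 0 lower. Mean oligodendrocyte sums were 172199 in CA3 and 95599 in DG. The part of these cell types in the differences of the 10 genes was not tested.

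Among pumps, Atp2b1 (ENSRNOG00000004026, chromosome 7) was highest in CA1 and lowest in CA3. Its level was 5281 to 12727 in CA1 (median 7927), 3563 to 8966 in CA3 (median 5749) and 4316 to 8882 in DG (median 6630). Here 32 of 34 CA1 libraries exceeded the CA3 median. The log2 differences were 0.51 ± 0.07 for CA1 minus CA3 (limma adjusted p = 8.58e-10), 0.23 ± 0.07 for CA1 minus DG and -0.28 ± 0.07 for CA3 minus DG. In rats numbered below 9000 alone CA3 minus DG was -0.12 ± 0.08 and no longer called, against -0.45 ± 0.09 in the others, and in rats from 9000 up alone CA1 minus DG was 0.17 ± 0.09 and no longer called. Atp2b2 (ENSRNOG00000030269, chromosome 4) was highest in DG (5024 to 8603, median 7077) and lowest in CA3 (3809 to 10632, median 5204), and CA3 minus DG was -0.38 ± 0.05, with -0.31 ± 0.07 on the Ion Proton. Its steps from CA1 to CA3 (0.21 ± 0.05) and from CA1 to DG (-0.17 ± 0.05) passed on the Illumina platform alone, and the first was called on both platforms without rat R2230, R2232 or R9869. Atp2a2 (ENSRNOG00000001285, chromosome 12), the refilling pump, was not called, and its log2 differences lay between -0.09 and 0.05.

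Stim2 (ENSRNOG00000002956, chromosome 14), the store sensor, was highest in DG. Its level was 928 to 1857 in CA1 (median 1275), 583 to 1919 in CA3 (median 1382) and 859 to 2045 in DG (median 1796). Of 34 DG libraries 33 lay above the CA1 median and 32 above the CA3 median. CA1 minus DG was -0.39 ± 0.07 and CA3 minus DG -0.40 ± 0.07, with -0.49 ± 0.09 and -0.47 ± 0.09 on the Ion Proton. CA1 minus CA3 was 0.00 (95% interval -0.14 to 0.15).

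Without the 14 libraries nearer to another subfield (32 CA1, 27 CA3 and 29 DG libraries left) all 14 calls were kept and Ryr1 for CA1 minus DG was added (-0.68 ± 0.12, Ion Proton -0.48 ± 0.16). The libraries left out were picked by subfield markers. Wider subfield differences without them are therefore partly built in and are not independent evidence. On the Illumina platform Ryr2 then ran from 8121 to 13520 in DG, above every CA1 library (2340 to 7520), while on the Ion Proton DG (5419 to 13215) and CA1 (2740 to 7034) overlapped. The Illumina differences of Ryr2 were -1.06 ± 0.09 for CA1 minus DG and -0.80 ± 0.10 for CA3 minus DG. Ryr1 was -1.26 ± 0.13 for CA3 minus DG and 0.58 ± 0.12 for CA1 minus CA3. Itpr1 ran from 3652 to 7645 in DG and was 0.79 ± 0.07, 0.42 ± 0.07 and 0.37 ± 0.07 for CA1 minus DG, CA1 minus CA3 and CA3 minus DG. Itpr3 ran from 42.6 to 149 in DG, with CA1 minus DG at 0.70 ± 0.14. Atp2b1 was 0.50 ± 0.07 for CA1 minus CA3, 0.22 ± 0.07 for CA1 minus DG and -0.28 ± 0.07 for CA3 minus DG, and Atp2b2 was -0.45 ± 0.05 for CA3 minus DG. Stim2 ran from 1444 to 2045 in DG, with -0.45 ± 0.07 for CA1 minus DG and -0.42 ± 0.08 for CA3 minus DG.

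**Figure D2:**
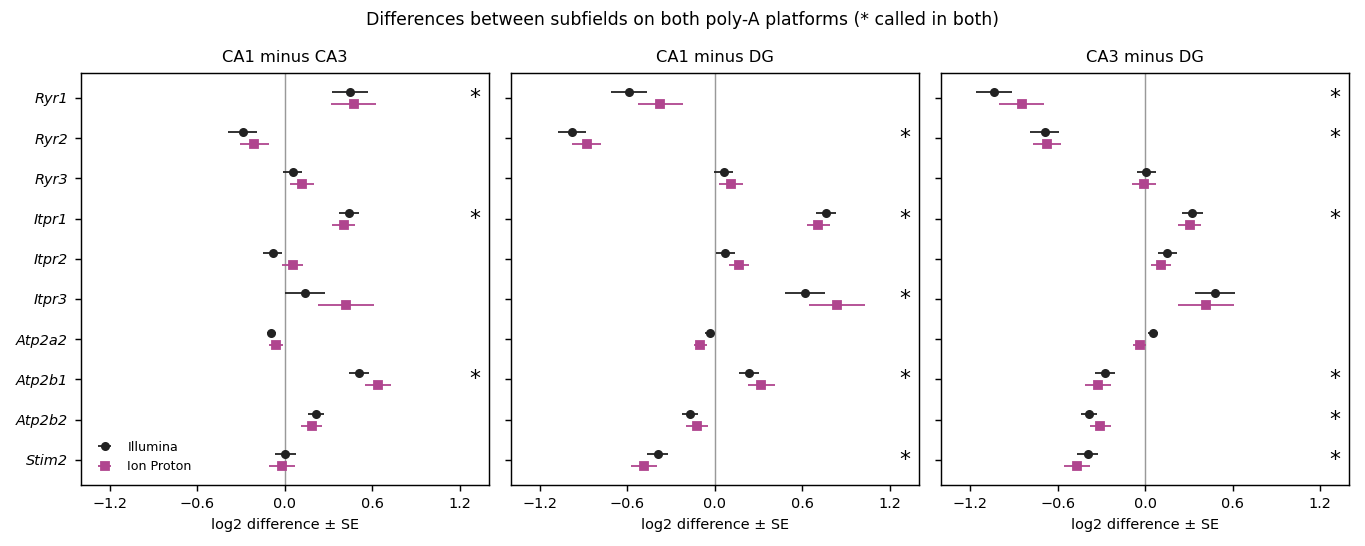
Log2 difference of each gene for CA1 minus CA3, CA1 minus DG and CA3 minus DG, with SE bars, on the Illumina (black circles) and Ion Proton (purple squares) platforms; a star marks a gene called on both. Both platforms place Ryr2 and Stim2 below 0 against DG and Itpr1 above 0 in all 3 panels, while Ryr3 stays near 0.

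The subfield differences that involve CA3 were not alike in the rat number series, which was seen in the within-series fits and then tested. In a limma fit with an interaction of subfield and series, 3 of the 10 genes differed between series for CA1 minus CA3 (13.7% of all tested genes), 3 for CA3 minus DG (16.8%) and 0 for CA1 minus DG (0.106%), by the rule used for subfields. At an unadjusted Illumina p under 0.05 the counts were 4, 7 and 1 of the 10 genes, against 47.4%, 54.1% and 14.8% of all genes. Ryr2 in CA3 had a mean of 7809 ± 1097 (SD, n = 18) in rats below 9000 and 5142 ± 2301 (n = 16) in the others, while its CA1 means were 5274 and 5133. Its CA1 minus CA3 difference was -0.59 in the first series and 0.05 in the second, a gap of 0.65 ± 0.16 (limma adjusted p = 0.000808).

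Stim2 in CA3 had 1604 ± 161 (n = 18) in the lower numbers and 1060 ± 245 (n = 16) in the higher. The CA1 minus CA3 difference of Stim2 therefore had opposite signs in the series, -0.28 and 0.33, and CA3 minus DG was -0.14 and -0.68. The CA3 minus DG call of Stim2 was lost in the lower series alone. Itpr3 in CA3 was 95.5 ± 28.0 and 203 ± 72.7, so that CA1 minus CA3 was 0.63 and -0.41 and CA3 minus DG -0.08 and 1.11. Atp2a2 in CA3 was 15802 ± 1533 and 13214 ± 950, and its CA3 minus DG difference was 0.23 and -0.14. Without the libraries nearer to another subfield 3 genes differed between series for CA1 minus CA3 (11.9% of all genes), 4 for CA3 minus DG (14.4%) and 0 for CA1 minus DG (0.141%), and the Ryr2 gap for CA1 minus CA3 was 0.99 ± 0.14.

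Marker levels moved with the series as well. In CA3 libraries the summed CA3 markers were 11647 to 19796 in the lower series and 3995 to 18385 in the higher, and summed CA1 markers were 1072 to 7086 and 2980 to 10525. Oligodendrocyte sums were lower in the higher series in CA3 (means 206959 and 133094) and higher there in CA1 (118424 and 195400) and DG (61614 and 133833), so both sides of each contrast moved. The summed DG markers had means of 1222 and 2545 in CA3 of the lower and higher series and of 6606 and 5155 in DG. Endothelial and mural sums had means of 3224 and 5136 in CA3, 4413 and 4619 in CA1 and 3123 and 3466 in DG. Astrocyte sums were higher in the higher series in CA1 (79732 and 97630), CA3 (75019 and 93588) and DG (71108 and 84215). Every listed marker of these cell types found in the table was above 0 in some CA3 library of each series. Their part in the series differences was not tested. Besides Stim2 and Atp2b1, Itpr3 for CA1 minus DG lost its call in the lower series alone (0.55 ± 0.14, Ion Proton adjusted p = 0.129 by limma). In the higher series alone the losses were Ryr1 for CA1 minus CA3 (0.32 ± 0.19) and for CA3 minus DG (-0.67 ± 0.19), and Itpr1 for CA3 minus DG (0.20 ± 0.09). Calls that held in both series alone were Itpr1 and Atp2b1 for CA1 minus CA3, Itpr1, Ryr2 and Stim2 for CA1 minus DG, and Ryr2 and Atp2b2 for CA3 minus DG.

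**Figure D3:**
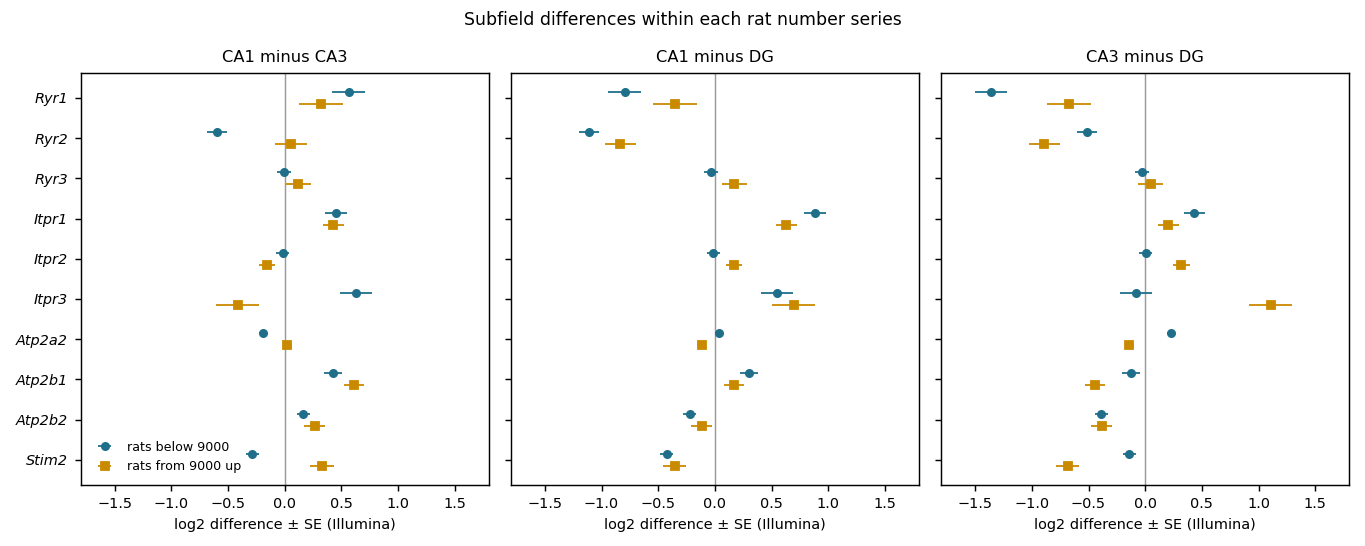
Log2 difference of each gene on the Illumina platform with SE bars, fitted in rats numbered below 9000 (blue circles) and from 9000 up (ochre squares) on their own, for the 3 subfield contrasts. Itpr3 and Stim2 change sign between series for CA1 minus CA3 (0.63 and -0.41, -0.28 and 0.33), and the series lie closer for CA1 minus DG.

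Transcripts of proteins that work with the store genes were counted from lists chosen with earlier results known, beside 14.1%, 26.4% and 27.9% of all tested genes called for CA1 minus CA3, CA1 minus DG and CA3 minus DG. Among 30 tested store proteins and channel partners, 7 were called between CA1 and CA3 (6 higher in CA1), 8 between CA1 and DG (6 lower in CA1) and 11 between CA3 and DG (7 lower in CA3). Among 13 tested genes of store-operated entry, 1, 5 and 6 were called, and of the calls against DG 4 and 5 were higher in DG. Among 14 other pumps and exchangers 6, 7 and 9 were called, among 27 receptors and phospholipase C genes 4, 14 and 11, and among 10 genes of mitochondrial calcium uptake 2, 4 and 2. Some of these counts lie near the share over all genes, namely 8 of 30 for CA1 minus DG, 4 of 27 for CA1 minus CA3 and 2 of 10 for CA1 minus CA3, and nothing is read from them about the lists.

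The called genes with the largest differences were named by a fixed rule. Between CA1 and CA3 these were Trpc6, a cation channel of the plasma membrane (0.84), Itpka, the kinase that consumes inositol trisphosphate (0.74), and Jph1, a junctophilin that ties the store to the plasma membrane (0.74). Between CA1 and DG they were the serotonin receptor Htr2c (1.99), the muscarinic receptor Chrm5 (1.31) and Homer3, a scaffold that links metabotropic receptors to the store (-1.27). Between CA3 and DG they were Htr2c (2.20), Trpc6 (-1.67) and Atp2a1, the SERCA1 pump (-1.42). Of 7 tested choroid plexus markers 2 were called higher in CA1 than in DG and 0 lower, near the 26.4% of all genes, and nothing is read from that count. The markers summed to 19.6 to 157398 in CA1 libraries and 21.1 to 4091 in DG. Their part in these receptor differences was not tested.

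The second question was whether the store genes differ with age or with cognition inside a subfield. A gene was called when p was under 0.01 on the Illumina platform and the same direction was retested at a one-sided p under 0.05 on the Ion Proton. None of the 10 genes was called by limma for aged (n = 24) against young (n = 10) rats in any subfield. In the CA1, CA3 and DG comparisons 0.832%, 0.393% and 1.07% of all tested genes were called. At an unadjusted Illumina p under 0.05 the count was 0 in each subfield (6.15%, 3.31% and 5.2% of all genes), and edgeR and DESeq2 also called 0. The log2 differences in CA1 lay between -0.36 and 0.14, those in CA3 between -0.13 and 0.19, and those in DG between -0.18 and 0.18. The half-width of a gene's 95% interval was 0.08 for Atp2a2 to 0.36 for Ryr1 (CA1). It was 0.14 for Atp2a2 to 0.53 for Itpr3 (CA3), and 0.08 for Atp2a2 to 0.40 for Ryr1 (DG). All 180 pairs of groups compared within a subfield on the 2 platforms had overlapping ranges. The share over all genes was not counted here either, and nothing is read from this.

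In CA1, 8 of the 10 genes had an Illumina value below 0 with age, and the median was -0.09 against 0.00 over all genes. Ryr1 lay furthest from 0. Its CA1 level was 145 to 406 in young (median 207), 132 to 285 in aged unimpaired (median 187) and 79.5 to 372 in aged impaired rats (median 186). The aged minus young difference was -0.36 ± 0.18 (limma p = 0.0522, adjusted p = 0.817) and -0.59 ± 0.21 on the Ion Proton (p = 0.00678, adjusted p = 0.934 by limma). Within the number series it was -0.12 and -0.61 on the Illumina platform. Microglial markers moved with age in CA1, where 4 of 10 were called higher, with sums of 6556 to 10178 in young, 6948 to 13079 in aged unimpaired and 7454 to 11954 in aged impaired rats, and their part was not tested.

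In DG, Ryr1 included 1 young library far above the rest, which was rat R2221 at 956 with the others between 168 and 360. The DG difference of aged minus young for Ryr1 was -0.18 ± 0.20 (SE), and without rat R2221 it was 0.00 ± 0.17. In CA3, Atp2b2 was 3809 to 6159 in young (median 4905), 4206 to 7674 in aged unimpaired (median 5463) and 4217 to 10632 in aged impaired rats (median 5387). Its aged minus young difference was 0.19 ± 0.10 in CA3 and -0.08 ± 0.07 in CA1. The age difference of CA1 minus CA3 for Atp2b2 was -0.27 ± 0.12 (limma p = 0.0253, adjusted p = 1.00) and -0.34 ± 0.16 on the Ion Proton. The library at 10632, of rat R9875, is 1 of the 7 CA3 libraries nearer to another subfield, of which 5 came from aged and 2 from young rats. Without all 14 such libraries the CA3 maximum was 7674, the age difference in CA3 was 0.13 ± 0.09, and that of CA1 minus CA3 was -0.19 ± 0.10 (limma p = 0.0640) and -0.28 ± 0.17 on the Ion Proton.

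**Figure D4:**
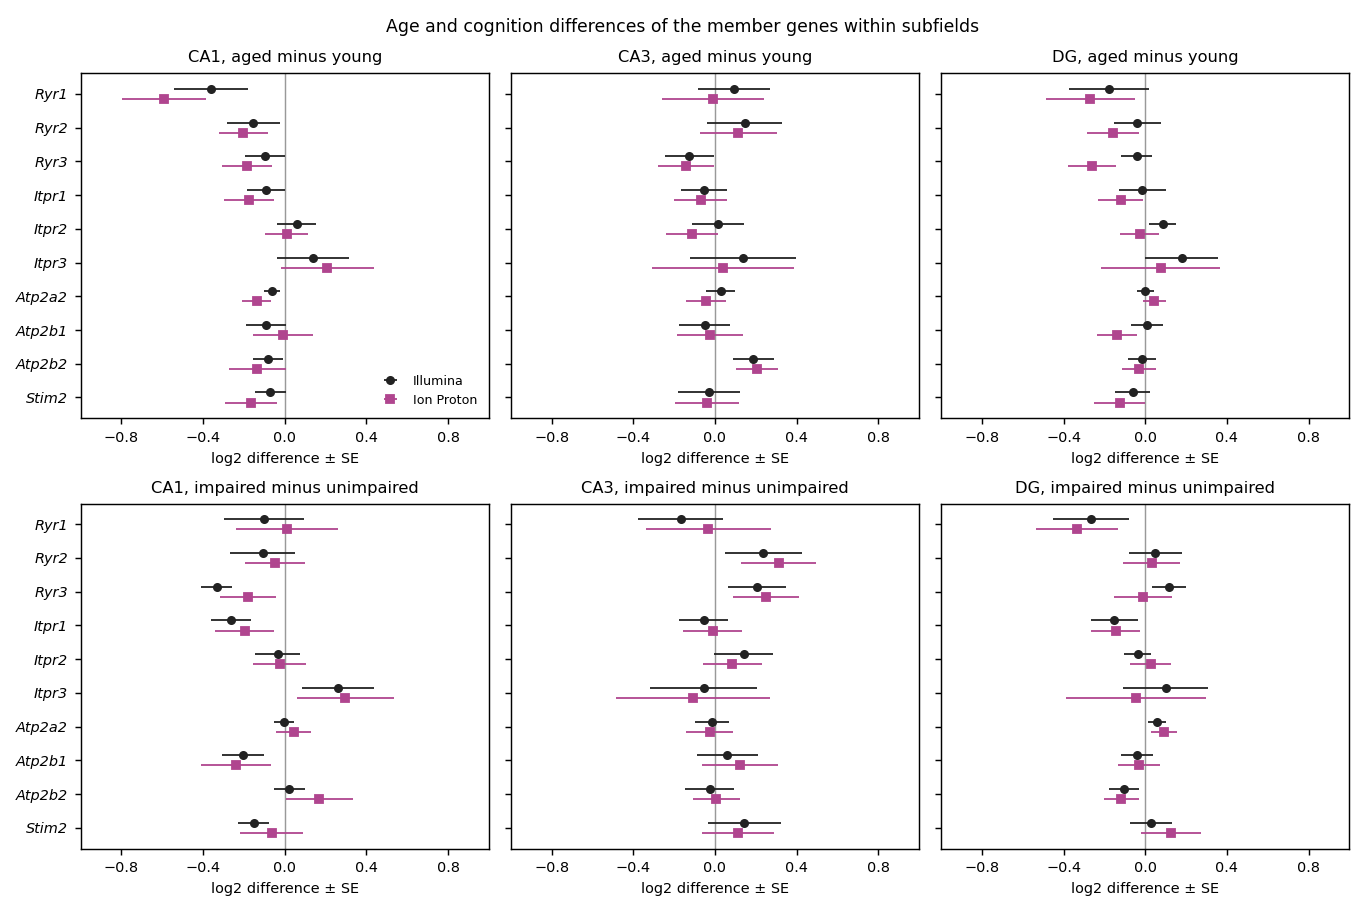
Log2 difference with SE bars of the 10 genes for aged minus young (top) and aged impaired minus aged unimpaired rats (bottom) in CA1, CA3 and DG, on the Illumina (black) and Ion Proton (purple) platforms. None of the 10 genes was called in any panel, and the Illumina values furthest from 0 are Ryr1 with age (-0.36, Ion Proton -0.59) and Ryr3 with cognition (-0.33, Ion Proton -0.18), both in CA1.

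For cognition, aged impaired (n = 12) and aged unimpaired (n = 12) rats were compared. None of the 10 genes was called by limma in CA1, CA3 or DG, where 0.62%, 0.0211% and 0.121% of all tested genes were called, and edgeR and DESeq2 also called 0. At an unadjusted Illumina p under 0.05 the counts were 2, 0 and 0 (5.71%, 1.4% and 3.85% of all genes). In CA1 the median of the 10 genes was -0.10 and 8 values lay below 0, against a median of 0.00 over all genes. Without the 7 deeply sequenced rats that median was -0.05.

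Ryr3 in CA1 ran from 1089 to 1592 in aged unimpaired rats (median 1289) and from 826 to 1300 in aged impaired rats (median 1059), with 775 to 1722 in young rats (median 1247). The aged impaired values lay low, but the ranges overlapped. The difference of impaired minus unimpaired was -0.33 ± 0.08 (limma p = 0.000199, adjusted p = 0.314), and -0.18 ± 0.14 on the Ion Proton missed the retest (p = 0.194 by limma). It passed the retest without rat R2232 (-0.33 and -0.23) or rat R9865 (-0.36 and -0.25), both aged unimpaired. Within the number series the Illumina values were -0.36 and -0.31, and without the 2 CA1 libraries nearer to another subfield the value was -0.30, with -0.10 on the Ion Proton. The cognition difference of Ryr3 in CA1 minus that in CA3 was -0.54 ± 0.15 (limma p = 0.000396, adjusted p = 0.907), and -0.43 ± 0.20 on the Ion Proton.

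Itpr1 in CA1 ran from 6733 to 12746 in aged unimpaired rats (median 9805) and from 5292 to 10397 in aged impaired rats (median 8102), with 7547 to 11854 in young rats (median 9126). Impaired minus unimpaired was -0.26 ± 0.10 (limma p = 0.0117, adjusted p = 0.685) and -0.20 ± 0.14 on the Ion Proton. Without rat R2232, whose Itpr1 was the lowest of the aged unimpaired rats on both platforms, the gene was called (-0.31 and -0.30). Without the 7 deeply sequenced rats the values were -0.16 and -0.10. The study reported Itpr1 as lower in CA1 of these aged impaired rats, by its thresholds on both platforms with DESeq2. With all rats it was not called here by limma, edgeR or DESeq2. The rats are the same, so its direction here is not independent evidence.

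Atp2b1 in CA1 was -0.21 ± 0.10 for impaired minus unimpaired (limma p = 0.0538) and was called without rat R9869 (-0.26 and -0.29), an aged unimpaired rat whose CA1 library lay nearer to another subfield. Without the deep rats it was -0.10. Stim2 was -0.15 ± 0.08 and Itpr3 0.26 ± 0.17 in the same comparison. Of the 10 genes 5 had an unadjusted limma p under 0.05 there in the WT values (6.59% of all WT genes tested), with adjusted p-values of 0.613 to 0.750. They were Atp2b1 (-0.25, p = 0.00207), Itpr1 (-0.26, p = 0.00362), Ryr3 (-0.30, p = 0.0109), Itpr3 (0.35, p = 0.0280) and Stim2 (-0.15, p = 0.0478), by limma. In CA3 and DG the 10 values lay between -0.17 and 0.24 and between -0.27 and 0.12.

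Against young rats, aged impaired CA1 gave -0.26 ± 0.10 for Ryr3 (limma p = 0.0106) and -0.28 ± 0.14 on the Ion Proton, just short of a call. With edgeR, DESeq2 or the number series as a covariate Ryr3 was called, and it was called without each of 6 single rats. Itpr1 was -0.22 ± 0.10 in that comparison. None of the 10 genes was called by limma in either aged group against young. Of all genes 0.655%, 0.281% and 0.649% were called in CA1, CA3 and DG of unimpaired rats, and 0.81%, 0.344% and 0.97% in those of impaired rats. At an unadjusted Illumina p under 0.05 the counts were 0 in each subfield for unimpaired rats (4.86%, 2.89% and 4.7% of all genes), and 2, 0 and 0 for impaired rats (7.81%, 3.07% and 5.05%), the 2 being Ryr3 and Itpr1.

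Differences between subfields in the age or cognition effect were tested as interactions. The main fit held no term for the rat, though each rat gave every subfield. By limma 0 of the 10 genes had an adjusted Illumina p under 0.05, as did 0% of all genes, and edgeR and DESeq2 gave 0 of the 10 as well. At an unadjusted p under 0.05 the counts for age were 1 (Atp2b2), 0 and 0 for CA1 minus CA3, CA1 minus DG and CA3 minus DG, where 1.89%, 0.353% and 1.03% of all genes passed. For cognition they were 1 (Ryr3), 1 (Ryr3) and 0, where 5.22%, 3.74% and 2.36% passed.

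**Figure D5:**
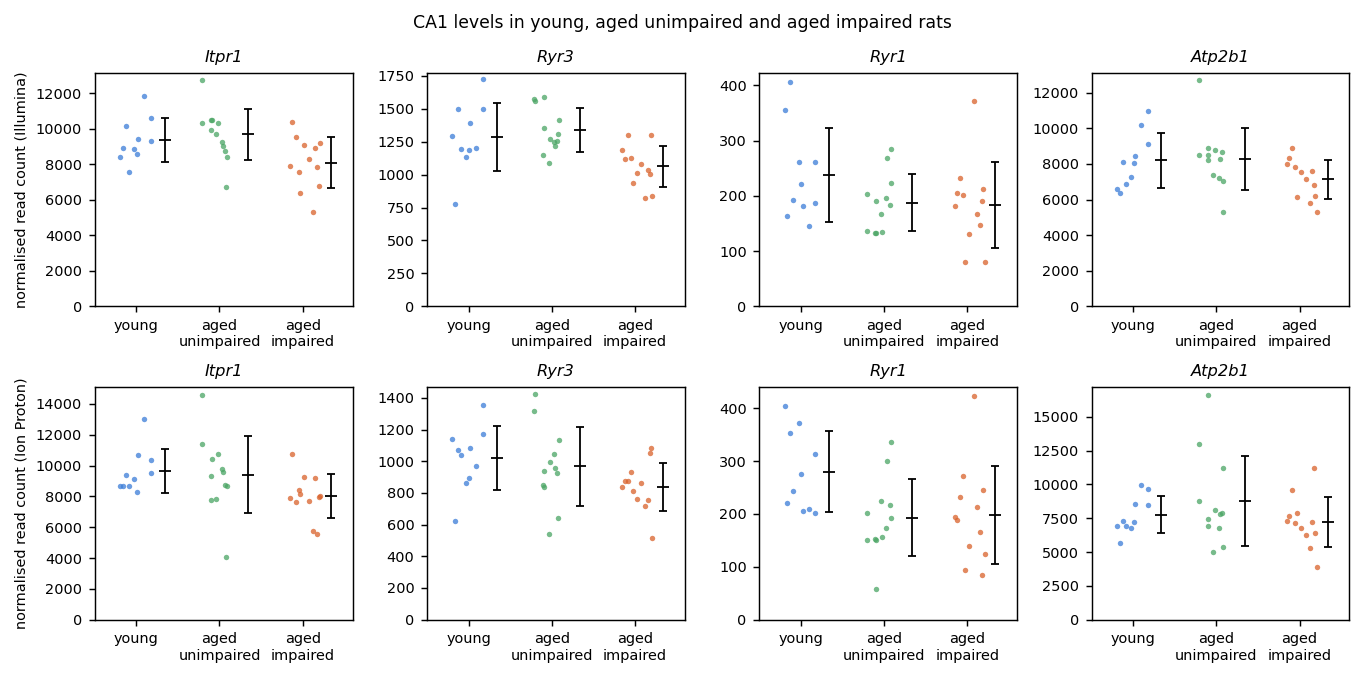
Normalised read count in CA1 (linear axes from 0) of Itpr1, Ryr3, Ryr1 and Atp2b1 in young, aged unimpaired and aged impaired rats on the Illumina (top) and Ion Proton (bottom) platforms, 1 point per rat with the mean and SD. Aged impaired Ryr3 values (826 to 1300, Illumina) lie lower than the unimpaired ones (1089 to 1592) but overlap them, and a single young rat lies at 775.

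A further 3 calcium genes that the study named for CA1 cognition on these rats were also read, so their directions are not independent evidence. Atp2b4, a further plasma membrane pump, was higher in aged impaired rats (0.94 ± 0.27, limma p = 0.00155, and 0.98 ± 0.29 on the Ion Proton), and Adra1d, an adrenergic receptor that activates phospholipase C, was lower (-0.43 ± 0.11 and -0.48 ± 0.13). Homer3, reported by the study as lower by its thresholds on both platforms, was -0.56 ± 0.17 and -0.40 ± 0.25. Here it missed the retest on the Ion Proton (two-sided p = 0.121 by limma). Among the pathway lists, these calls made 1 of 14 tested pumps and exchangers and 1 of 27 receptor genes, where 0.62% of all genes were called. Elsewhere, the phospholipase gene Plch2 was lower in CA1 of impaired than of young rats (-0.35), Plcg2, a phospholipase of immune cells, was higher with age in DG (0.38) and in both aged groups against young there (0.43 and 0.33), and Atp2a1 was higher in DG of impaired rats than of young (0.47). Of all genes 0.81% were called for impaired against young rats in CA1, and in DG 1.07% for aged, 0.649% for aged unimpaired and 0.97% for aged impaired against young. Microglial markers moved with age in DG too, where 7 of 10 were called higher and none was at 0, with sums of 5098 to 7961 in young, 6136 to 9598 in aged unimpaired and 5950 to 10800 in aged impaired rats, and their part in the Plcg2 difference was not tested. No other gene of the pathway lists was called for age or cognition, where adjusted p-values of the called genes by limma were 0.0845 to 0.592.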

How the data were processed

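Poly-A mRNA of CA1, CA3 and DG from 34 rats had been sequenced on Illumina and Ion Proton platforms. The authors deposited, per gene and library, counts divided by a DESeq2 size factor (unit: a normalised signal, not a raw count), and a further WT table in the same unit. Reads had been aligned to rn5 and counted with featureCounts. The submitters' processing notes name STAR 2.5, cutadapt 1.8.3, featureCounts 1.4.4 and DESeq2 1.16.1. Labels and methods name different TruSeq kits, so strand use in counting is unknown, and overlapping or antisense genes may share reads. In each of the tables, 100% of values were whole multiples of 1 read (tolerance 0.001). The 48 rows without a symbol (0.0203% to 0.0576% of reads) matched no gene described here.

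Each table was tested on its own with limma 3.58.1 (R 4.3.3, trended variance) on log2(value + 1) for genes with a mean of at least 10, which understates changes of low genes. Subfields were fitted over all libraries, age (aged against young) and cognition within a subfield, and their differences between subfields as interactions, called at an Illumina adjusted p under 0.05. Groups came from sample titles. In simulated counts of 14191 genes for CA1 aged against young, 78% of 1.5-fold and 95% of 2-fold changes had an adjusted p under 0.05. At the unadjusted p under 0.01 used first for age, 85% and 96% passed by limma, as did 0.986% of unchanged genes. The simulation covered Illumina values without the Ion Proton retest and held no changes below 1.5-fold, so it does not give the power for smaller differences. Alternatives used edgeR 4.0.16 and DESeq2 1.42.0 on recovered reads, other pseudocounts, filters and normalisations, subsets of rats, and a block on the rat. Libraries share a rat by design, and deviations of same-rat libraries correlated with a median of 0.0953 (49 pairs over 0.1, so not every pair). The interaction of subfield with number series was chosen after seeing the data and was fitted without a term for the rat. The 10 genes, marker lists and pathway lists were chosen with earlier results of these data known. All 10 genes are named in every comparison, and from pathway lists up to 3 called genes with the largest Illumina difference, or all called where 5 or fewer were called, plus 4 genes the study named for CA1 cognition (Itpr1, Homer3, Adra1d and Atp2b4). Figures were drawn with matplotlib 3.10.9.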

Additional observations from a re-analysis of the deposited data

Results flagged for a closer look

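Among the 10 young rats of a subfield, 30 gene and subfield groups were checked for a value standing apart by Dixon's gap, which chance passes in about 1 of 20 groups, and 2 did. Ryr1 in DG was 955.9 in rat R2221, next to 359.5 in the nearest young rat, a gap of 0.757 of the group's range. Atp2b2 in CA1 was 8493 in rat R9876, next to 6881 in the nearest, a gap of 0.487.

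A set of 6 subfield differences differed between the rat number series by an interaction test on both platforms (limma, adjusted p under 0.05). As rats from 9000 up minus rats below 9000, the log2 gap for CA1 minus CA3 was 0.61 for Stim2, 0.65 for Ryr2 and -1.04 for Itpr3. For CA3 minus DG the gap was -0.37 for Atp2a2, -0.54 for Stim2 and 1.19 for Itpr3. The series is known from rat numbers alone and cannot be told apart from the study's sites.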

How the results depend on the processing

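Of 196 recalculations of the 14 called subfield differences, 188 kept the call, 8 lost it and 0 reversed. In 7 of the 14 the call was kept under every alternative and without each single rat. Of the 8 losses 7 came from a single number series. There fewer rats were fitted, and each of these 7 Illumina differences was also smaller than over all rats. For CA3 minus DG in the lower series Stim2 was -0.14 and Atp2b1 -0.12. Why these calls were lost was not tested. The other loss came from leaving out the deeply sequenced rats. The count of called genes between CA1 and CA3 was 5 with DESeq2 (16% of all genes) and 5 in rats below 9000 alone (21.4%), against 3 (14.1%). For CA1 of aged impaired against young rats it was 1 with edgeR (1.09% of all genes), 1 with DESeq2 (1.18%), 1 with number series as a covariate (1.37%) and 0 to 1 without single rats, against 0. For CA1 cognition it was 0 to 2 without single rats, against 0. The cause was not tested. The replicate block on the rat gave 3, 6 and 6 called genes for CA1 minus CA3, CA1 minus DG and CA3 minus DG (15.8%, 29.2% and 30.8% of all genes), and Ryr1 for CA1 minus DG was its single changed call. Over all genes, the alternatives gave 551 to 3023 (against 1996) calls for CA1 minus CA3, up to 4142 (against 3739) for CA1 minus DG, with 1104 higher and 1072 lower in rats below 9000 alone, and 3073 to 4460 (against 3957) for CA3 minus DG. For aged minus young they gave 85 to 187 (against 118) in CA1, 32 to 157 (against 56) in CA3 and 88 to 194 (against 150) in DG, and for cognition 32 to 111 (against 88), 0 to 15 (against 3) and 5 to 111 (against 17). Against young rats they gave 42 to 159 (against 93), 19 to 95 (against 40) and 45 to 127 (against 91) for unimpaired and 34 to 194 (against 115), 24 to 127 (against 49) and 78 to 216 (against 136) for impaired rats. Without the deeply sequenced rats the median of the 10 genes for CA1 cognition was -0.05, against -0.10. Itpr3 or Ryr1 had the widest interval of the 10 genes in every comparison.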
